A study of Rattus norvegicus with 6 samples.

Results

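The miR-15/16 family, with its relatives miR-195 and miR-497, is a group of miRNAs whose 5p strands share 1 seed, the stretch of bases 2 to 8 that pairs with target mRNAs. Its members were chosen by name, as every sequence listed under the hairpins rno-mir-15a, rno-mir-15b, rno-mir-16, rno-mir-195 and rno-mir-497, with copy numbers ignored. These 5 hairpins, of 240 annotated hairpins with counts, gave 8 of the 932 mature arms, that is, the 5p and 3p strands cut from either side of a hairpin. The data are small RNA counts from RSC96, an immortalised line of rat Schwann cells, the glia that wrap peripheral axons. Cells had 48 h of high glucose (3 libraries) or of low glucose, the control (3 libraries). No other treatment or genotype is given, nor is a glucose concentration. The series title concerns exosomes, the labels do not say whether vesicles or cells were used, and the extraction text names retina although the samples are labelled RSC96 and nerve. The high glucose libraries held 963706 to 1354456 counts and the low glucose libraries 114615 to 148143, a 9.31-fold difference between the means that moves with the groups, so depth and treatment cannot be told apart. No library lists a sequence with fewer than 2 reads, which removes more of a rare miRNA from a shallow library than from a deep one.

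miRNAs are cut as hairpins from longer transcripts, and the strand loaded into an Argonaute protein represses mRNAs that match its seed. The 5p strands of this family are known repressors of cyclins D and E, of the kinase Cdk6 and of the survival protein Bcl2, and so restrain entry into the cell cycle. mir-15b and mir-16 are made together from an intron of the gene of the chromosome protein Smc4, and mir-195 and mir-497 form a cluster of their own. miR-16 is also abundant in red blood cells. In the RefSeq gene table for the GRCr8 assembly, Mir15b and Mir16 both lay within the span of Smc4 on chromosome 2. Mir195 and Mir497 lay side by side on chromosome 10 with no other listed gene spanning them.

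The mature 5p sequences below, from RefSeq, show what makes these miRNAs 1 family. Capitals mark the seed, and places are on GRCr8, plus strand: miR-16-5p at chr2:155555343-155555364, miR-15b-5p at chr2:155555197-155555218, miR-195-5p at chr10:55450509-55450529 and miR-497-5p at chr10:55450172-55450193. For miR-15a-5p the longest sequence in the deposited files is shown, in DNA letters.
miR-16-5p: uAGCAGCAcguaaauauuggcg
miR-15b-5p: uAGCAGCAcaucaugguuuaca
miR-195-5p: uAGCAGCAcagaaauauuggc
miR-497-5p: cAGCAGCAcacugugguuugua
miR-15a-5p: tAGCAGCAcataatggtttgt
All 5 carried the seed AGCAGCA. Over the first 21 bases miR-16-5p and miR-195-5p were identical at 19, miR-15a-5p and miR-15b-5p at 18, and miR-16-5p and miR-497-5p at 11.

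The 3p strands, shown next with bases 2 to 8 in capitals, do not carry that seed and differ from each other. miR-15b-3p lies at chr2:155555235-155555256, miR-195-3p at chr10:55450547-55450569 and miR-16-3p at chr2:155555385-155555405.
miR-15b-3p: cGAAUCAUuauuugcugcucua
miR-195-3p: cCAAUAUUggcugugcugcucca
miR-16-3p: aCCAAUAUuauugugcugcuu
The deposited hairpins of mir-15b and mir-195 show how both strands sit in 1 stem, with the RefSeq mature arms in capitals.
mir-15b: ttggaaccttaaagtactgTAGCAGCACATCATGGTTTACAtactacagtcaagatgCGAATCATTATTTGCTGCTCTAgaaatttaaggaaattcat
mir-195: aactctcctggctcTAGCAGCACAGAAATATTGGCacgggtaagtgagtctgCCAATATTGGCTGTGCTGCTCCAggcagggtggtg
The mir-15b arms occupy positions 20 to 41 and 58 to 79 of the 98 nt hairpin. Those of mir-195 occupy positions 15 to 35 and 53 to 75 of its 87 nt hairpin.

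The family was a minor part of every library. It had 298, 380 and 510 reads in high glucose, against 89, 105 and 43 reads in low glucose. Per 10000 counts this was 3.09, 2.97 and 3.77 in high glucose, against 7.19, 7.09 and 3.75 in low glucose. The shares in low glucose replicate 3 and in high glucose replicate 3 were thus near-equal, and the groups overlapped. Of the 8 arms, 4 passed the filter on low counts and were tested: miR-16-5p, miR-15b-5p, miR-15b-3p and miR-195-3p. miR-195-3p would not have passed without its high glucose counts, nor miR-15b-5p without its low glucose counts. Each of them thus entered the test through the group where it was higher. Without the filter both were also called (edgeR adjusted p = 1.55e-05 for miR-195-3p and 0.00854 for miR-15b-5p). In that fit the median log2 fold change over all 932 arms was 3.53, so miR-195-3p, at 4.35, lay near the middle. miR-15b-5p was at -2.23 there. In edgeR's quasi-likelihood test, with Benjamini-Hochberg adjustment over all 297 tested arms at 0.05, miR-195-3p was higher in high glucose, miR-16-5p and miR-15b-5p were lower, and miR-15b-3p was not called. Over all tested arms 41.4% were called higher and 22.6% lower, so 1 higher and 2 lower of 4 is too small a count to set apart from that background. In these bulk samples, fewer cells of a type and less RNA per cell cannot be told apart.

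**Figure D1:**
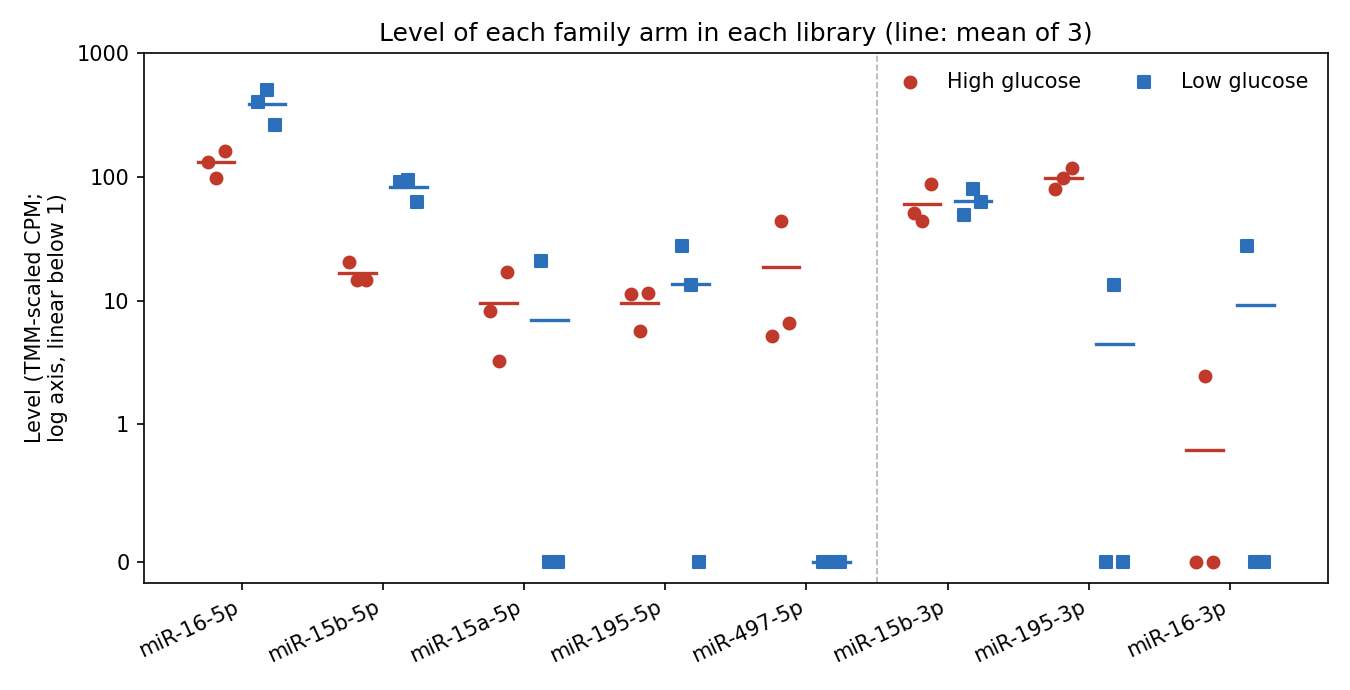
TMM-scaled CPM (log axis, linear below 1) of the 8 family arms in each library, 5p arms left and 3p arms right of the dashed line; circles are the 3 high glucose and squares the 3 low glucose libraries, with a line at each mean. miR-16-5p and miR-15b-5p lie lower in every high glucose library, miR-195-3p lies higher, and miR-15b-3p overlaps between the groups.

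miR-16-5p was the most abundant member in both groups. It had 128, 120 and 199 reads in high glucose, against 58, 75 and 29 reads in low glucose. Levels are given in CPM (counts scaled to a common library total) after TMM scaling, which corrects library size for shifts in composition. TMM takes most arms as unchanged, and comparing CPM between libraries rests on that assumption. Here 64.0% of tested arms were called, and the median log2 fold change was 0.68, or 0.12 with upper quartile scaling. The level of miR-16-5p was 132, 98.0 and 163 CPM in high glucose, against 404, 503 and 259.7 CPM in low glucose. The groups did not overlap, and the lowest of the low glucose libraries, replicate 3, was still above all high glucose libraries. Among all tested arms 25.9% lay lower in every high glucose library. miR-16-5p averaged 131 ± 32.4 CPM (SD, n = 3) with high glucose, against 389 ± 122.1 CPM (SD, n = 3) with low glucose, and its log2 fold change was -1.58 (SE 0.32, edgeR adjusted p = 0.00334). With counts limited to its most abundant sequence it was -0.80 and no longer called (edgeR adjusted p = 0.125). Its raw counts went the other way, with a mean of 149 reads in high glucose and 54 in low glucose, so the fall is one relative to library size.

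miR-15b-5p, whose gene lies within Smc4 as Mir16 does, was lower in high glucose as well. It had 20, 18 and 18 reads in high glucose, against 13, 14 and 7 reads in low glucose. That came to 20.7, 14.7 and 14.7 CPM in high glucose, against 90.5, 93.8 and 62.7 CPM in low glucose. Every high glucose library lay below every low glucose library, which was also so for 25.9% of all tested arms. The log2 fold change was -2.30 (SE 0.44, edgeR adjusted p = 0.00245). At the mean low glucose level a high glucose library would have held 79.5 to 101 reads, where 18 to 20 were counted. A miRNA at that level would thus have been listed there with more reads. The part of depth in this difference was not tested, since miR-15b-5p did not pass the filter in the thinned counts.

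The other 3 members with the seed were sparse, and none of them passed the filter on low counts. Without that filter none was called, with edgeR adjusted p-values of 0.844 for miR-15a-5p, 0.821 for miR-195-5p and 0.156 for miR-497-5p (unadjusted p = 0.0355). miR-195-5p had 11, 7 and 14 reads in high glucose, against 4, 2 and 0 reads in low glucose, which is 5.72 to 11.5 CPM against 0 to 27.9 CPM. Its summed counts gave a ratio of high over low glucose of 0.632 (95% counting interval 0.261 to 1.85), so no difference was detectable at this depth. miR-15a-5p had 8, 4 and 21 reads in high glucose, against 3, 0 and 0 reads in low glucose, a ratio of 1.3 (95% counting interval 0.409 to 6.64). These exact binomial intervals cover counting error only, not the spread between libraries.

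miR-497-5p, the cluster partner of miR-195, was listed in high glucose libraries only. It had 5, 54 and 8 reads there, against 0 in each low glucose library. High glucose replicate 2 held 54 of the 67 reads. At its mean high glucose level of 18.6 CPM, a low glucose library would have held 2.08 to 2.78 reads. That is so near the minimum of 2 reads per sequence that a listed 0 gives no fold.

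Reads with the seed AGCAGCA at bases 2 to 8 came from the 5 family hairpins and from mir-322 alone. Those of the family summed to 178, 166 and 209 CPM in high glucose, against 543, 609.8 and 322 CPM in low glucose. Their mean was 184 ± 22.5 CPM (SD, n = 3) with high glucose, against 492 ± 150.4 CPM (SD, n = 3) with low glucose. miR-16-5p supplied 69.9% ± 9.38 (SD, n = 3) of these reads with high glucose, against 79.1% ± 4.22 (SD, n = 3) with low glucose, so the sum mostly follows that 1 miRNA. The share was lowest in high glucose replicate 2, at 59.1%, the library with most miR-497-5p reads.

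**Figure D2:**
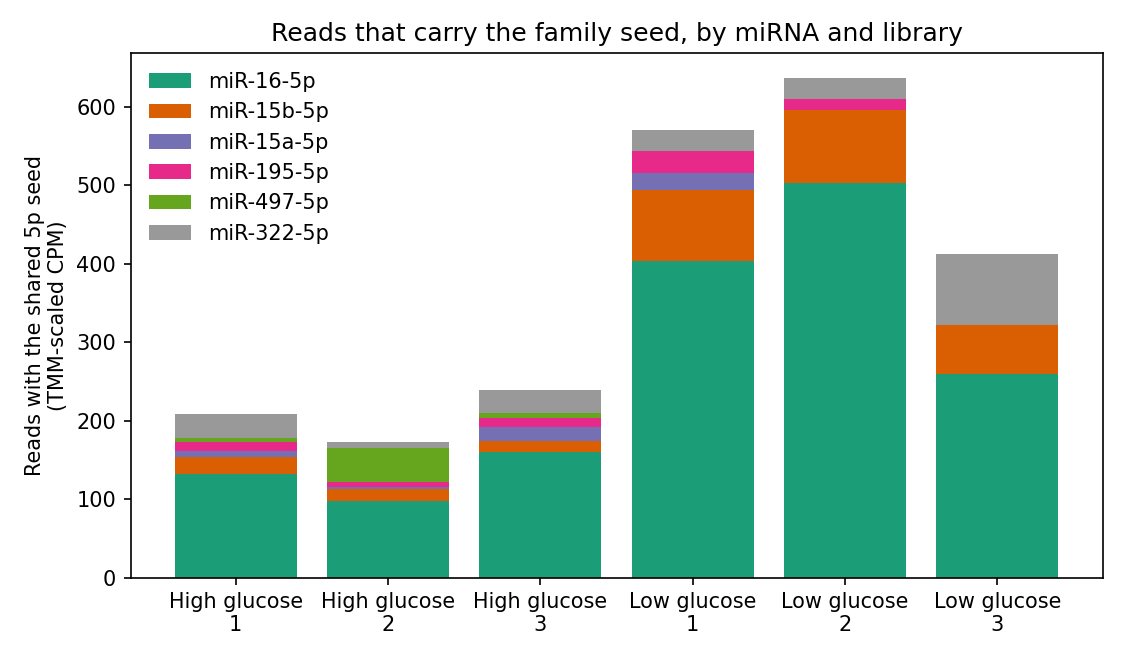
Stacked bars of TMM-scaled CPM of reads whose bases 2 to 8 are the family seed, by miRNA, in the 3 high glucose and 3 low glucose libraries. miR-16-5p is the largest part of every bar, and the family sums to 166 to 209 CPM in high glucose, against 322 to 609.8 CPM in low glucose.

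The 3p strand miR-195-3p was the 1 family arm called higher. It had 77, 120 and 144 reads in high glucose, against 0, 2 and 0 reads in low glucose. This was 79.7, 98.0 and 118 CPM in high glucose, against 0, 13.4 and 0 CPM in low glucose. Every high glucose library lay above every low glucose library, which was also so for 45.8% of all tested arms. The summed counts gave a ratio of 20.2 (95% counting interval 5.55 to 168), and miR-195-3p was called higher (edgeR adjusted p = 0.00221). At its mean high glucose level, a low glucose library would have held 11.0 to 14.7 reads before the minimum of 2 reads per sequence. Thinned to the smallest library with that minimum applied, the high glucose libraries kept 8.4, 11.7 and 10.55 reads (means of 20 draws). The fitted log2 fold change was 4.28 (SE 0.79), and 9.19 without low glucose replicate 2, which held the only low glucose reads.

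miR-15b-3p, from the other side of the mir-15b stem, had 49, 54 and 106 reads in high glucose, against 7, 12 and 7 reads in low glucose. In CPM it stood at 50.7, 44.1 and 86.7 in high glucose, against 48.7, 80.4 and 62.7 in low glucose. These ranges overlapped, and the log2 fold change was -0.08 (SE 0.45, edgeR adjusted p = 0.883). miR-16-3p was rare throughout, with 0, 3 and 0 reads in high glucose, against 4, 0 and 0 reads in low glucose.

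The order of the levels therefore differed between the groups. In high glucose miR-16-5p (131 ± 32.4 CPM) was followed by miR-195-3p (98.5 ± 19.1 CPM) and miR-15b-3p (60.5 ± 22.9 CPM; SD, n = 3 each). The library ranges of neighbours in this order overlapped. In low glucose miR-16-5p (389 ± 122.1 CPM) stood clear of miR-15b-5p (82.3 ± 17.1 CPM) and miR-15b-3p (64.0 ± 15.9 CPM; SD, n = 3 each), whose ranges overlapped. The remaining members averaged 0.817 to 18.6 CPM in high glucose and 0 to 13.8 CPM in low glucose, and in this order neighbouring ranges overlapped, except that miR-16-3p lay below miR-195-5p in all high glucose libraries. In low glucose miR-15b-3p lay above miR-195-5p without overlap. Among the 362 annotated arms miR-16-5p ranked 113 by mean level in high glucose and 81 in low glucose. miR-15b-5p ranked 212 in high glucose and 118 in low glucose, and miR-195-3p 122 in high glucose and 238 in low glucose.

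**Figure D3:**
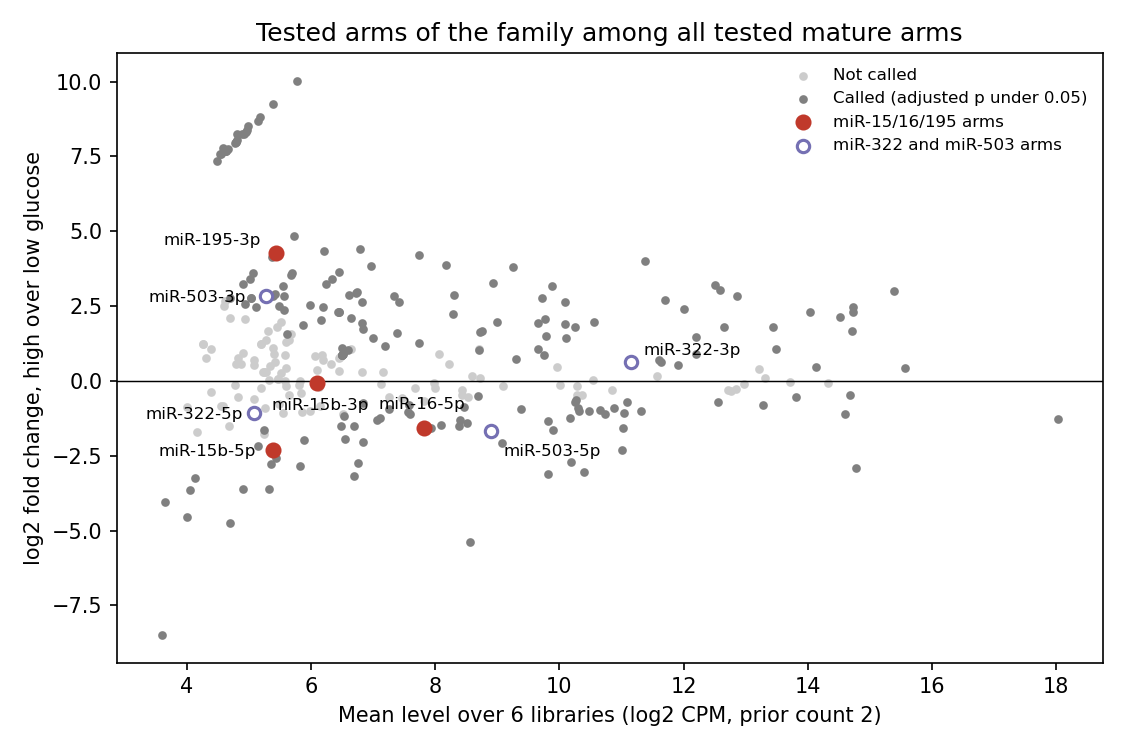
log2 fold change (high over low glucose) against mean log2 CPM over the 6 libraries for the 297 tested arms; grey shades separate arms called at an adjusted p of 0.05 from the rest. Filled circles are the 4 tested family arms, with miR-195-3p above 0, miR-15b-3p at -0.08, miR-16-5p at -1.58 and miR-15b-5p at -2.30, and open circles are arms of miR-322 and miR-503.

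The ratio of 5p to 3p reads compares both strands of 1 hairpin within 1 library, so it does not depend on scaling. For miR-15b the 3p strand made up 71.0%, 75% and 85.5% of the reads in high glucose, against 35%, 46.2% and 50% in low glucose. With counts this small the exact binomial 95% intervals were wide, from 58.8% to 81.3% in the lowest high glucose library and from 23.0% to 77.0% in the highest low glucose library. The groups did not overlap: the 3p strand was the more frequent one in all high glucose libraries and in none of the low glucose ones. The log2 ratio of 5p to 3p, with 0.5 added to each count, was -1.79 ± 0.66 (SD, n = 3) with high glucose, against 0.35 ± 0.44 (SD, n = 3) with low glucose. The difference was -2.14, with an exact two-sided permutation p of 0.1, the smallest that 3 against 3 libraries allow.

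For miR-195 the 3p strand made up 87.5%, 94.5% and 91.1% of the reads in high glucose. In low glucose it had 0 of 4 and 2 of 4 reads in replicates 1 and 2, and replicate 3 held no read of either strand. The log2 ratio was -3.36 ± 0.63 (SD, n = 3) with high glucose, against 1.06 ± 1.83 (SD, n = 3) with low glucose (exact permutation p = 0.1). The low glucose value rests on 8 reads in all, and its replicate 3 enters as 0.5 over 0.5. Without that library the difference was -4.94. miR-16 stayed almost wholly 5p, with 447 5p and 3 3p reads in high glucose, against 162 and 4 in low glucose.

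A lower 5p to 3p ratio in high glucose was common among other hairpins with both arms tested. Of 40 annotated hairpins with both arms tested, 47.5% had a lower 5p to 3p ratio in every high glucose library and 7.5% a higher one. The median difference in log2 ratio was -0.82 (quartiles -1.83 and 0.01), and miR-15b had the 9th lowest value. Likewise 47.4% of the 97 tested annotated 3p arms were called higher and 18.6% lower, against 30.7% and 32.7% of the 101 annotated 5p arms. A rare strand could pass the filter through its high glucose counts alone, as did miR-503-3p (234 reads in high glucose, 4 in low glucose). How much of these shares follows from the filter and from depth was not tested. The change of miR-15b was therefore within the range of other hairpins.

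**Figure D4:**
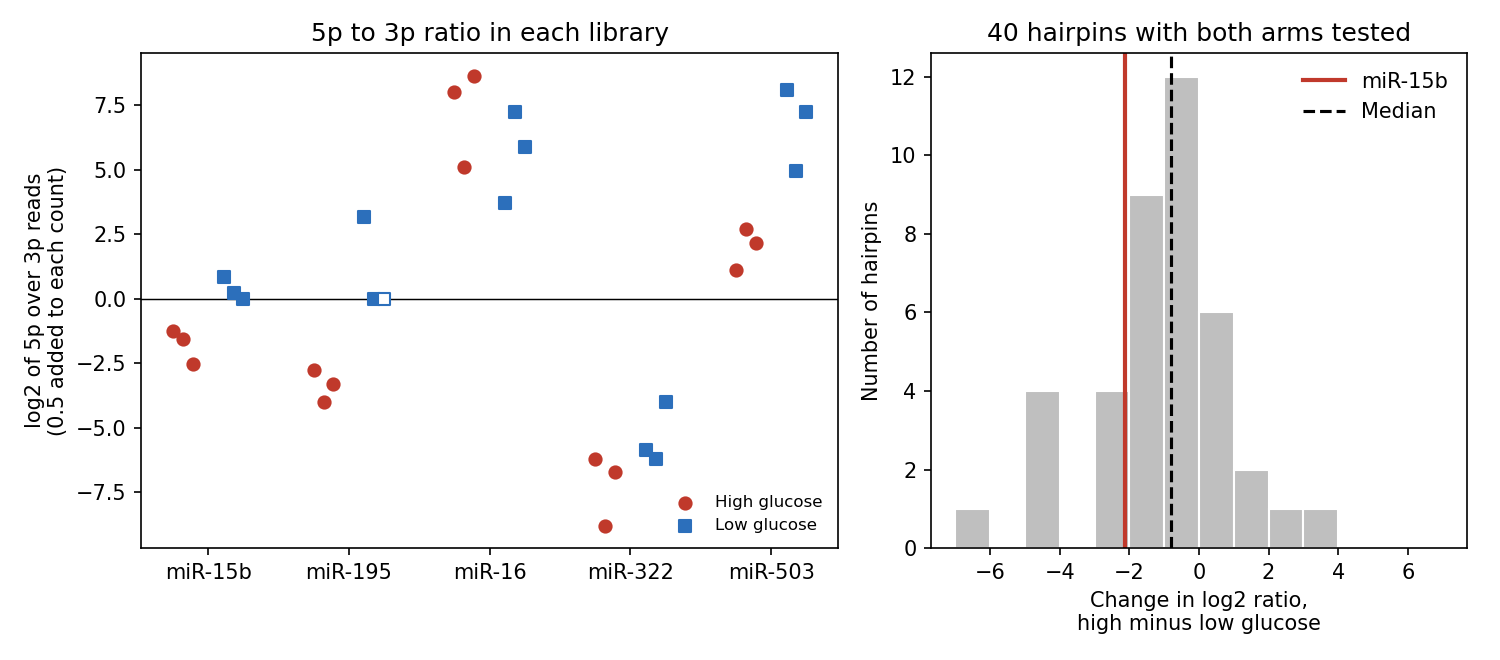
Left, log2 of 5p over 3p reads (0.5 added to each count) in each high glucose (circles) and low glucose (squares) library for the family hairpins with both arms and for miR-322 and miR-503; the open square is a library with no reads of miR-195. Right, the change in that ratio, high minus low glucose, for 40 hairpins, with miR-15b at -2.14 and the median at -0.82.

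miR-322 and miR-503, a cluster on the X chromosome, are the nearest relatives by seed. miR-322-5p has the same seed and miR-503-5p, with AGCAGCG, differs at base 8. Their RefSeq sequences are given for comparison.
miR-322-5p: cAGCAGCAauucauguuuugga
miR-503-5p: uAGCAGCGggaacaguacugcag
miR-503-5p had 266.9 ± 34.4 CPM (SD, n = 3) with high glucose, against 845 ± 158 CPM (SD, n = 3) with low glucose. It was 3.17-fold lower (edgeR adjusted p = 0.000579; log2 fold change -1.66, SE 0.22). miR-322-5p stood at 22.3 ± 13.7 CPM (SD, n = 3) with high glucose, against 48.1 ± 35.9 CPM (SD, n = 3) with low glucose, and was not called (edgeR adjusted p = 0.271). Of these 2 arms 1 was called lower and 0 higher, 0 also at an unadjusted p and with DESeq2 or limma-voom. Beside 22.6% lower and 41.4% higher over all tested arms, 1 of 2 cannot be set apart from the background. The 3p strand miR-503-3p was higher, at 71.3 ± 32.3 CPM (SD, n = 3) with high glucose, against 8.94 ± 15.5 CPM (SD, n = 3) with low glucose (edgeR adjusted p = 0.0315), as was miR-322-3p (log2 fold change 0.64, SE 0.21, edgeR adjusted p = 0.0260).

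The family's reads also differed in where they ended. For miR-16-5p the 3 frequent forms in the deposited files share their start and end at hairpin positions 37, 38 and 39, and bases from the 21st on are in capitals.
21 nt form: tagcagcacgtaaatattggC
22 nt form: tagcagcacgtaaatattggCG
23 nt form: tagcagcacgtaaatattggCGT
The 22 nt form is the RefSeq mature sequence, yet it was the rarest of the 3 over all libraries. The 21 nt form made up 53.9%, 52.5% and 75.9% of miR-16-5p reads in high glucose, against 37.9%, 36.0% and 48.3% in low glucose. Every high glucose share lay above every low glucose share, by 20.03 percentage points on average (exact permutation p = 0.1, the smallest possible). How many arms outside the family separate in this way was not determined, so the shift cannot be called particular to miR-16-5p. Among low glucose libraries, which held 29 to 75 miR-16-5p reads, the 95% intervals reached from 25.2% up to 67.5%. Reads that end at position 39 made up 37.5%, 43.3% and 7.04% in high glucose, against 43.1%, 38.7% and 24.1% in low glucose, so high glucose replicate 3 stood apart from its group. Mean length did not separate the groups, at 21.6 ± 0.32 nt (SD, n = 3) with high glucose, against 21.8 ± 0.36 nt (SD, n = 3) with low glucose (exact permutation p = 0.5).

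**Figure D5:**
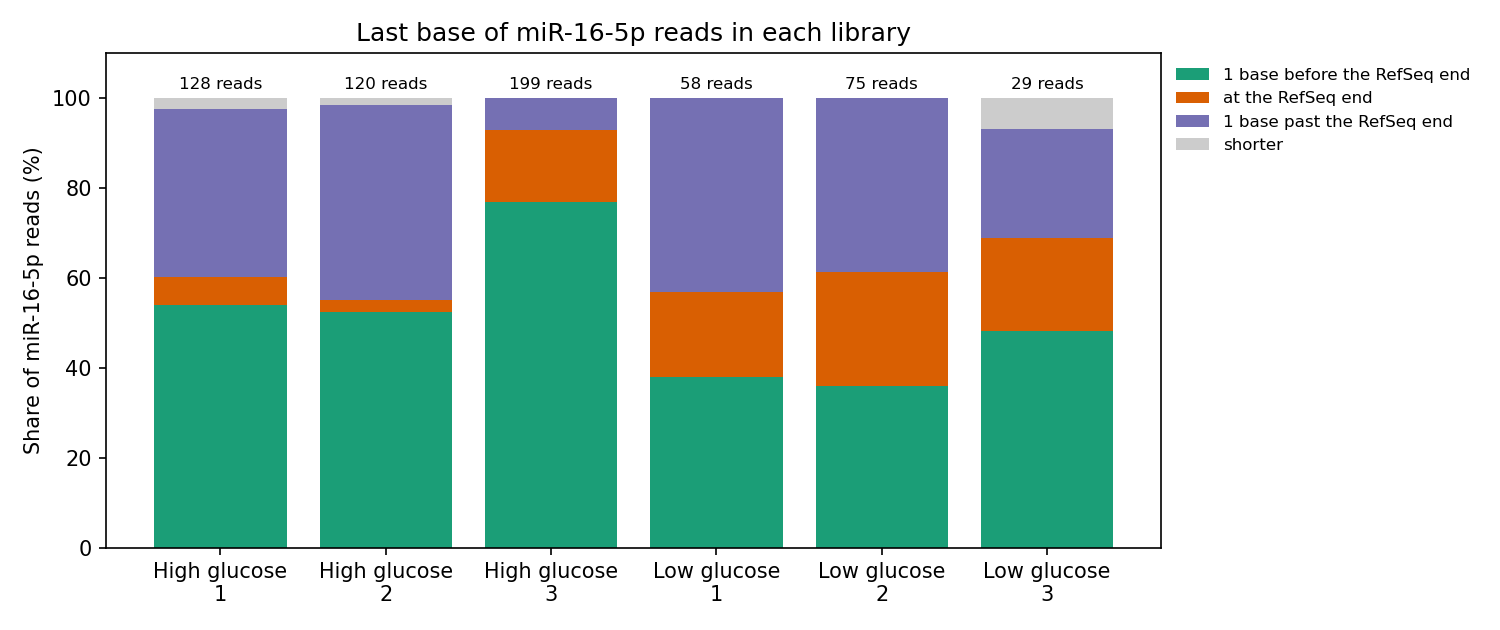
Share of miR-16-5p reads (%) by last base relative to the RefSeq end, in the 3 high glucose and 3 low glucose libraries, with each library's read number above its bar. The class ending 1 base before the RefSeq end is 52.5% to 76.9% in high glucose, against 36.0% to 48.3% in low glucose.

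The forms of miR-15b-5p are described next, by counts alone, since too few reads were listed for a test. The 21 nt and 22 nt forms were these, with bases from the 21st on in capitals.
21 nt form: tagcagcacatcatggtttaC
22 nt form: tagcagcacatcatggtttaCA
The 21 nt form had 16, 16 and 5 reads in high glucose, against 10, 11 and 5 in low glucose. The 22 nt form, which is the RefSeq sequence, had 3, 3 and 2 reads in low glucose and was listed in no high glucose library, despite their greater depth. High glucose replicate 3 held 13 reads of a 20 nt form that no other library listed.

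Some reads of both strands carried a foreign last base, a mismatch to the hairpin at the 3′ end. On the 5p side these were 5.15% of miR-16-5p reads in high glucose and 8.02% in low glucose. miR-195-5p had 11 of 32 in high glucose, all in replicate 1, and 0 of 6 in low glucose. miR-497-5p had 7 of 67 in high glucose, and miR-15a-5p and miR-15b-5p had none. For miR-15b-3p such reads were 7 of 49, 2 of 54 and 55 of 106 in high glucose, against 0 of 7, 0 of 12 and 0 of 7 in low glucose. High glucose replicate 3 alone, at 51.9%, set this apart. For miR-195-3p they were 31.2%, 31.7% and 7.64% in high glucose, where replicate 3 was the low one. Over all annotated arms the share was 9.88% to 10.2% in high glucose and 8.16% to 8.79% in low glucose. The forms of miR-195-3p also varied between libraries, as its most frequent ones show (bases from the 21st on in capitals).
22 nt form: ccaatattggctgtgctgctCC
23 nt form: ccaatattggctgtgctgctCCA
24 nt form: ccaatattggctgtgctgctCCAT
The 22 nt form had 12, 56 and 55 reads in high glucose replicates 1 to 3, and the 23 nt form, the RefSeq sequence, had 41, 0 and 76. The 24 nt form, with the change G24T counted from the 5′ end, had 20, 28 and 0.

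Arms with a pattern like that of miR-16-5p were looked for among 194 tested annotated arms outside the family, by Pearson's correlation of log2 CPM over the 6 libraries. The highest were miR-17-5p (r = 0.989), miR-19b-3p (r = 0.973) and miR-30b-5p (r = 0.967). These values describe the shared split between the groups and shared library depth, and carry no test. All 3 were lower in high glucose, by 2.45-fold, 9.02-fold and 26.8-fold, the last from 15 reads in high glucose and 52 in low glucose.

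Other miRNAs known to repress the same G1 cell cycle genes did not all follow. Of 12 tested, 2 were called higher and 4 lower, beside 41.4% and 22.6% of all tested arms, predicted hairpins included. Most of the 12 are 5p arms, and of the tested annotated 5p arms 30.7% were called higher and 32.7% lower. The counts cannot be set apart from that background. The median log2 fold change of the 12 was -0.32, where that of all tested arms, not of annotated 5p arms alone, was 0.68. let-7a-5p (log2 fold change 2.84, SE 0.26) and let-7b-5p were the higher ones. miR-17-5p (-1.29, SE 0.31), miR-20a-5p, miR-26b-5p and miR-34c-5p were the lower ones. Other scalings gave 5 or 6 lower in place of 4. Without low glucose replicate 1 there were 3 higher and 2 lower, and without low glucose replicate 2 there were 2 higher and 1 lower.

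Red cell miRNAs were measured because miR-16 is abundant in red cells. Both tested members of that list of 4 were lower: miR-451-5p had 369.5, 305 and 272 CPM in high glucose, against 2228, 1930.04 and 3941 CPM in low glucose, and miR-486-5p had 519, 645 and 476 CPM against 1476, 1293 and 2382 CPM. In raw reads miR-451-5p was near-equal, with 1064 in high glucose and 1048 in low glucose, and miR-486-5p had 1873 and 671. Both falls are thus relative to library size. The summed list ran from 762 to 954 CPM in high glucose and from 3237 to 6395 CPM in low glucose. Within low glucose, replicate 3 had the most miR-451-5p and miR-486-5p and the least miR-16-5p. The part of red cell RNA in the fall of miR-16-5p was not tested. All counts of called markers here stand beside 41.4% higher and 22.6% lower over all tested arms, and none is large enough to be set apart from that. Of the other marker lists, the Schwann cell list had 2 higher (miR-221-3p and miR-222-3p) and 1 lower (miR-21-5p) of 3 tested, or 1 and 1 with upper quartile scaling, and its miR-338-3p and miR-138-5p were not listed. The neuron list had 2 higher of 2 (miR-128-3p and miR-129-5p), and miR-124-3p was not listed. The files name miR-9 as miR-9a, which the list did not match. With miR-9a-5p, which was tested and not called (log2 fold change 0.03, edgeR adjusted p = 0.877), the neuron list stands at 2 higher of 3. The retina list had 1 lower of 1 tested (miR-183-5p), a call that was lost or could not be tested in 5 of the 6 fits without 1 library, and miR-182-5p and miR-96-5p were not listed. Another retina marker, miR-211-5p, was not tested and had 129 reads in high glucose, against 2 in low glucose (38.7 and 4.64 CPM on average). Its groups did not overlap, and 45.8% of tested arms lay higher in every high glucose library. At its high glucose mean a low glucose library would have held only 4.32 to 5.78 reads. miR-204-5p, also not tested, had 33 reads in high glucose and 0 in low glucose, and its groups overlapped. Without low glucose replicate 1, 1 retina arm was called higher and 1 lower. The fibroblast and vessel wall list had 1 lower of 2, kept without high glucose replicate 1 and lost when any of the other 5 libraries was left out. The leukocyte list had 0 of 3 called by edgeR, DESeq2 or limma-voom, and 0 at an unadjusted p, but 1 higher without high glucose replicate 3. None of the muscle list was tested.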

How the data were processed

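The files hold counts that the authors deposited per sequence and hairpin, with positions and mismatches. Novoalign 3.02.12 and cutadapt 1.9.3 are named, with no role, in the submitters' processing notes, and the genome build of the files is not given in the sources used here. Whether the centre of a sequence lay before or after the midpoint of its hairpin set the arm (5p or 3p), copies and identical hairpins were joined, and counts were summed per arm and library. No family sequence was listed under another hairpin. RefSeq mature sequences matched 4 of the 5 members. The file hairpins of mir-16, mir-195 and mir-497 are identical to RefSeq ones, and coordinates are those of the RefSeq entries.

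The test was edgeR 4.0.16 (R 4.3.3), quasi-likelihood, TMM, filterByExpr with minimum count 10, robust. log2 CPM used a prior count of 2, and CPM were scaled to the TMM-corrected totals of the tested arms. limma 3.58.1 and DESeq2 1.42.0 served as alternatives, with other scalings, filters, thinning to 114615 counts, a replicate block and fits without each library. Python 3.11.15, pandas 2.3.3, NumPy 2.4.6, SciPy 1.17.1 and matplotlib 3.10.9 were used otherwise. Ratios and lengths were compared by exact two-sided permutation, lengths and sequence shares only for arms with 10 or more counts in every library, which left miR-16-5p.

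The members, lists (red cell, seed relatives, G1 cell cycle, leukocyte, neuron, muscle, fibroblast and vessel wall, retina, Schwann cell) and tests were chosen with earlier results of these data known. Named arms are all family arms, those lists and the 3 arms most like the most abundant member. miR-424-5p and miR-6216, also put in the seed list, had no counts, and the RefSeq miR-6216 lacks the seed. miR-322-3p and miR-503-3p were added after their values were seen. The labels do not say whether the replicates are separate cultures. The p-values then cover only how these libraries vary, and that variation may be technical. Within each group every pair of libraries differed beyond sampling noise (lowest chi-square per degree of freedom 4.19), so each counted as 1 replicate.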

Additional observations from a re-analysis of the deposited data

How the results depend on the processing

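miR-15b-5p and miR-195-3p kept their direction and call under every alternative in which they were tested (18 and 17), with log2 fold changes of -2.91 to -2.07 (adjusted p 0.000112 to 0.0322) and 3.70 to 9.19 (adjusted p 1.55e-05 to 0.0123). The value of 9.19 came without low glucose replicate 2, which held both low glucose reads. The adjusted p of 1.55e-05 came without the filter, where the median log2 fold change over all arms was 3.53. miR-16-5p kept its direction in 19 alternatives, at -2.19 to -0.80, and lost its call in 1, when counts were limited to its top sequence (adjusted p = 0.125; range 3.35e-05 to 0.125). miR-15b-3p was called in none of 17, at -0.67 (upper quartile scaling) to 0.28. It was -0.203 to 0.28 when 1 library was left out, turning to 0.024, 0.038 and 0.28 without high glucose replicates 1 and 2 and low glucose replicate 2, and to 0.047 with joined arms, an alternative chosen after seeing the data. With counts thinned to the smallest library, family calls were 0 higher and 1 lower, because only miR-16-5p could be tested. With the most abundant sequences only they were also 0 and 1, miR-195-3p not being tested. Over all arms, 79 to 117 were higher and 41 to 59 lower when 1 library was left out, 69 were higher after thinning and 78 with annotated hairpins only, and 40 were lower with the most abundant sequences only. Fewer arms were tested in the last 3. Upper quartile scaling moved the median log2 fold change by -0.56, the other scalings by -0.12 and -0.11. Calls then were 91 higher and 93 lower, 49.5% higher in place of 64.7%, with the family at 1 higher and 2 lower. The 5p to 3p ratio of miR-15b differed by -2.40 to -1.70 and that of miR-195 by -5.52 to -3.36. That of miR-16, 1.64 in log2 at full depth (exact permutation p = 0.4), turned to -1.18 in the thinned counts and to -0.70 over 20 thinned draws; without 1 library it was 0.69 to 2.72. The miR-16-5p mean length difference of -0.18 nt was -0.39 to 0.0013 without 1 library, the turn coming without high glucose replicate 3. The share of its main sequence differed by 12.5 to 24.2 percentage points. With the replicate number as a block, 104 arms were higher and 58 lower, and the family was again at 1 and 2. Whether the numbers pair the libraries could not be settled. Deviations of same-numbered libraries correlated at 0.048, -0.00081 and -0.072, and those of differently numbered ones at -0.068 to 0.079. Such deviations hold much counting noise at the low glucose depth, so this check cannot exclude a pairing. The cause of the changes other than those stated was not tested. Depth limits the low glucose group most, where miR-195-5p, miR-15a-5p, miR-497-5p and miR-16-3p had 0 to 6 reads in all.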

Other observations

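Every miR-16-3p read carried a mismatch. In full-length forms it was T11C, counted from the 5′ end of the read, and in a shorter form T5C, both at hairpin position 69. These were 3 reads in high glucose and 4 in low glucose, and the RefSeq hairpin has the same base there as the deposited hairpin. miR-15a-5p was listed in high glucose as 16 and 18 nt forms, with 4 and 29 reads, and in low glucose as a 21 nt form with 3 reads. The cause of neither was tested.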
